A study of Mus musculus with 12 samples.

Results

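The 10 genes described here encode factors that set and keep epithelial identity: the Grainyhead-like transcription factors Grhl1, Grhl2 and Grhl3, the zinc-finger repressors Ovol1 and Ovol2, the splicing regulators Esrp1 and Esrp2, and the epithelial ETS factors Elf3, Elf5 and Ehf. They were chosen by gene symbol, and all 10 were found among the 26264 genes counted and among the 16465 genes that passed the filter on low counts. Poly-A RNA was sequenced in bulk from organoids at passage 3, grown from epithelial cells of the mouse endometrium, the lining of the uterus. The 12 libraries formed 4 groups of 3, namely Esr1 knockout (KO) with estrogen, KO without estrogen, wild type (WT) with estrogen and WT without estrogen. Esr1 encodes estrogen receptor alpha, and the series concerns its part in the lineage choices of the uterine epithelium. The labels give neither the Esr1 allele, the estrogen used, its dose, nor the age of the donor mice for these libraries, and they do not say whether replicates came from separate animals or cultures, so p-values measure only the spread between these libraries.

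Epithelial cells are held in their state by a small circuit of factors. GRHL proteins bind enhancers and promoters of adhesion and barrier genes, OVOL proteins repress genes of the mesenchymal state such as Zeb1, and ESRP proteins bind pre-mRNA and favour the epithelial choice of exons, as in Fgfr2 and Cd44. ELF3, ELF5 and EHF belong to the epithelium-specific branch of the ETS family and are found in glandular and stratified epithelia. The counts are per gene, so they show how much of a factor's mRNA was present and nothing of the exons it contained.

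Levels are in CPM, counts per 1e+06 counted reads scaled with edgeR's TMM factors, with SD over 3 libraries. Libraries held 75654191 to 108665407 counted reads. Esr1 averaged 16.4 ± 0.402 CPM in untreated KO organoids against 308 ± 50.2 CPM in untreated WT organoids, and 19.7 ± 0.51 CPM in treated KO against 318 ± 33.5 CPM in treated WT (n = 3 each). The epithelial markers Epcam, Cdh1, Krt8 and Krt18 averaged from 490 CPM (Krt8 in untreated WT organoids) upwards in every group. Of these, Epcam and Krt18 were lower in KO in both treatments, and Cdh1 and Krt8 were not called in both. Epcam averaged 653 ± 66.9 CPM in untreated KO organoids against 1067 ± 64.8 CPM in untreated WT organoids. Of 9 uterine epithelial and gland markers, 3 were higher in KO (Foxa2, Cxcl15 and Ltf), 4 were lower (Esr1, Pgr, Pax8 and Pax2), and Hoxa10 and Hoxa11, at 0 to 4 reads per group, were not tested. Their summed level was 12200 to 23800 CPM in KO libraries and 1950 to 8820 CPM in WT libraries, most of it Ltf. Basal and stratified cell markers rose in KO (7 of 7; summed level 4870 to 12700 CPM in KO libraries against 6.68 to 9.96 CPM in WT libraries), as did multiciliated markers (6 of 6; 582 to 1000 CPM against 0.465 to 0.843 CPM). Of the 7 immune markers 3 fell and 1 rose in KO. Their summed level was 101 to 188 CPM in KO libraries against 255 to 474 CPM in WT libraries, with Ptprc, which marks white blood cells, at 0 reads in untreated KO organoids and 1708 reads over untreated WT organoids. Stromal, smooth muscle and endothelial markers each summed to 0.654 to 10.9 CPM in KO libraries and to 0.166 to 5.31 CPM in WT libraries. Of the 9 stromal markers 1 rose, Vim (6.73 ± 0.952 CPM in untreated KO organoids against 0.122 ± 0.0546 CPM in untreated WT organoids), none fell, and Lum had 0 reads in KO. Of the 5 endothelial markers Pecam1 rose (0.750 ± 0.162 against 0.0297 ± 0.00937 CPM, in the same order), Cdh5 fell (0.0231 ± 0.0008 against 2.02 ± 1.21 CPM), and Emcn had 0 reads in every library. The mesothelial markers summed to 26.9 to 79.7 CPM in KO libraries and to 24.7 to 87 CPM in WT libraries, most of it Msln, which was not called. Of these markers Upk3b rose (6.37 ± 2.4 CPM in untreated KO organoids against 0.0781 ± 0.0719 CPM in untreated WT organoids), and Wt1 and Lrrn4 were not tested. The part of these cell populations in the results below was not tested, and in bulk RNA fewer cells of a type cannot be told apart from less RNA per cell.

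KO was compared with WT to ask which of these factors differ between the Esr1 genotypes. Grhl1, Grhl3, Ovol1, Esrp1, Elf5 and Ehf rose in KO and Grhl2 fell, each in both treatments, while Ovol2, Esrp2 and Elf3 did not pass in both. A gene was called where the adjusted p of edgeR's quasi-likelihood test was under 0.05, and a factor is written as higher or lower in KO where the comparisons with and without estrogen were both called in that direction. Without estrogen 7 factors were called, 6 higher and 1 lower, against 71.7% of all genes tested (37.7% higher, 34% lower). With estrogen all 10 were called, 8 higher and 2 lower, against 70.8% (36.7% higher, 34.1% lower). The calls held in both treatments for 7 of the 10 factors, 6 higher and 1 lower. Of all genes tested 64.9% were called in this way, 34.1% higher and 30.8% lower, so a share of 7 in 10 is near the background. Of the 10 factors 5 also passed 2-fold with and without estrogen, against 35.6% of all genes. All 6 KO libraries lay above all 6 WT libraries for 6 factors and below them for 1, against 34% and 31% of all genes (65% together). Same-numbered KO libraries deviated together across treatments, so the comparisons with and without estrogen do not repeat each other independently. The median log2 fold change of the 10 factors was 1.19 without and 1.15 with estrogen, against 0.04 and 0.02 over all genes tested. Without regard to sign the median was 1.23 without and 1.19 with estrogen, against 0.749 and 0.722 over all genes. The factors were chosen with earlier results of these data known, so these medians only describe them. The text below therefore turns on which member of each family changed and by how much.

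**Figure D1:**
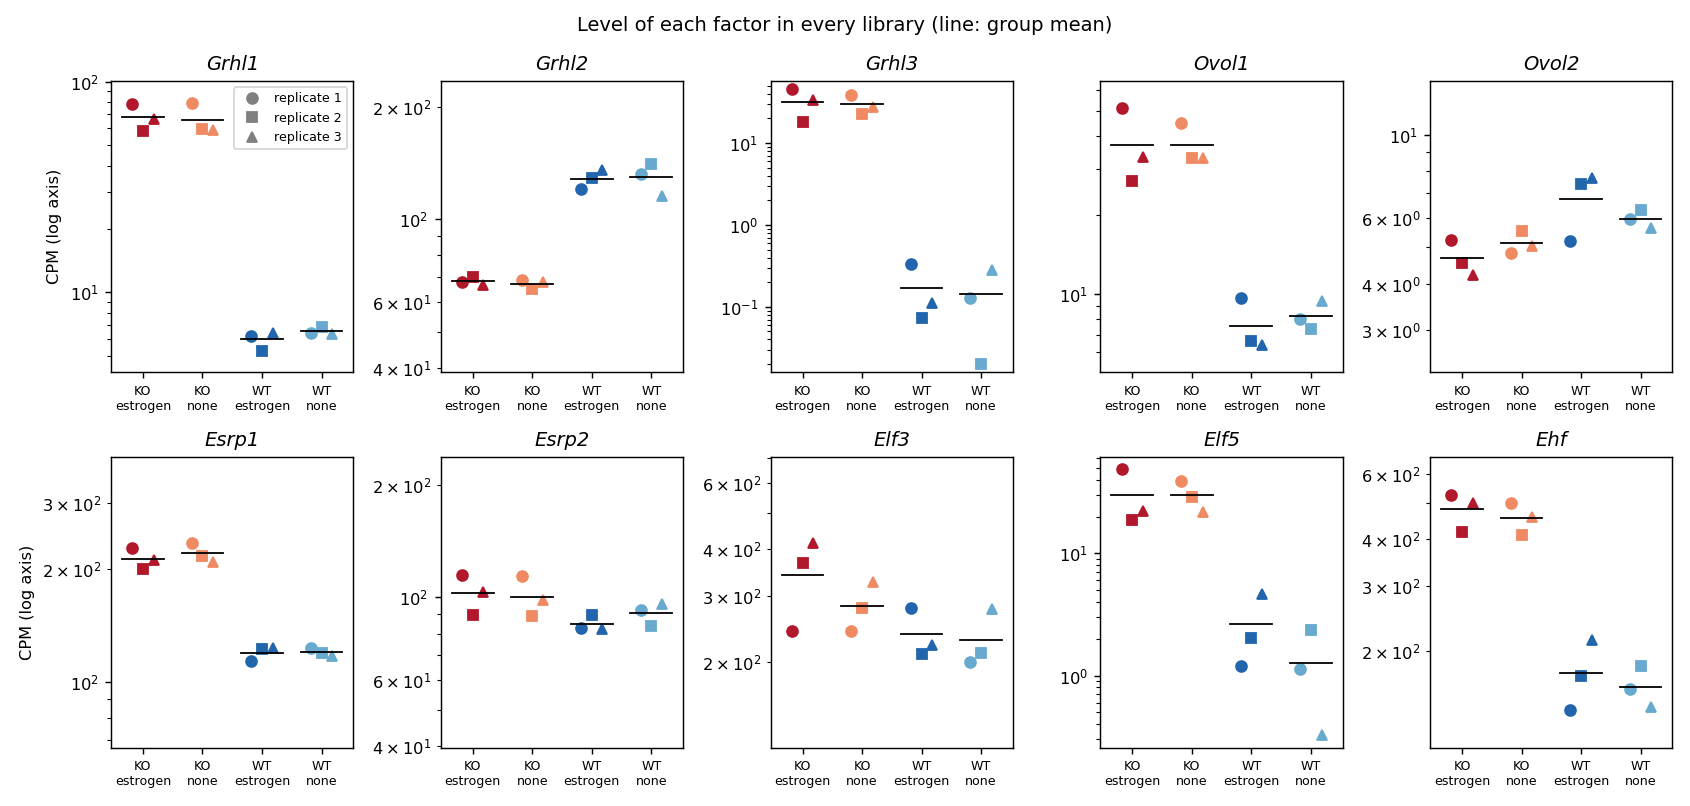
Level of each of the 10 factors in every library, in CPM on a log axis whose range differs between panels. Points are libraries, marked by replicate number, and lines are means of 3 libraries. Grhl1, Grhl3, Ovol1, Esrp1, Elf5 and Ehf lay higher in all 6 KO libraries than in all 6 WT libraries, Grhl2 lay lower, and Ovol2, Esrp2 and Elf3 overlapped.

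The Grainyhead-like genes moved in opposite directions. Grhl2, which sustains Cdh1 and other junction genes in simple epithelia, had 68.5, 65.0 and 67.8 CPM in untreated KO organoids, against 132, 141 and 115 CPM in untreated WT organoids. The treated organoids had 67.8, 70.0 and 66.8 CPM in KO, against 121, 129 and 135 CPM in WT. All KO libraries were below all WT libraries, and the KO values lay within a narrow band. KO held 0.519 of the WT level without estrogen (log2 fold change -0.95 ± 0.0757, SE; edgeR adjusted p = 7.97e-07) and 0.531 with it (-0.91 ± 0.0756; edgeR adjusted p = 1.15e-06).

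Grhl1, which in skin supports desmosomal cadherins and hair anchorage, had 79.7, 59.5 and 59.2 CPM in untreated KO organoids, against 6.42, 6.82 and 6.33 CPM in untreated WT organoids. In treated organoids its level was 78.4, 58.1 and 66.9 CPM in KO, against 6.23, 5.29 and 6.42 CPM in WT. Every KO library stood well above every WT library. The difference was 10.1-fold without estrogen (log2 fold change 3.34 ± 0.150; edgeR adjusted p = 1.23e-08) and 11.3-fold with it (3.50 ± 0.151; edgeR adjusted p = 1.11e-08).

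Grhl3, a factor of epidermal barrier formation and neural tube closure, was near the detection limit in WT. It had 38.8, 22.8 and 27.3 CPM in untreated KO organoids, against 0.127, 0.0202 and 0.278 CPM in untreated WT organoids, where these are 10, 2 and 24 reads. With estrogen it had 45.2, 18.0 and 33.3 CPM in KO, against 0.329, 0.0726 and 0.113 CPM in WT, or 32, 6 and 10 reads. The lowest KO library was far above the highest WT library. The fold was 213 without estrogen (95% confidence interval 76.1 to 594; edgeR adjusted p = 1.76e-06) and 181 with it (66.7 to 492; edgeR adjusted p = 1.99e-06). The size depended on WT libraries with few reads, and the log2 fold change of 7.73 without estrogen became 8.73 without untreated WT replicate 3, while that of 7.50 with estrogen became 8.41 without treated WT replicate 1. The filter used CPM before TMM scaling, on which 3 of the 6 WT libraries reached its cutoff of 0.107 CPM for Grhl3, whereas the other 9 factors reached it in all 12 libraries.

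The promoters of the Grainyhead-like genes with the largest increases are shown because those genes moved together. Sequences are from RefSeq on build GRCm38.p6, which is older than the build GRCm39 named for these files, and run from 250 bases before to 50 after an annotated start, on the strand of the gene. They cover chr4:135573583-135573882 (minus strand) for Grhl3 and, for Grhl1, the upstream of 2 listed windows, chr12:24572037-24572336 (plus strand). Capitals mark CAGGTG or its reverse complement CACCTG, the E-box that SNAI and ZEB repressors can bind.
Grhl3: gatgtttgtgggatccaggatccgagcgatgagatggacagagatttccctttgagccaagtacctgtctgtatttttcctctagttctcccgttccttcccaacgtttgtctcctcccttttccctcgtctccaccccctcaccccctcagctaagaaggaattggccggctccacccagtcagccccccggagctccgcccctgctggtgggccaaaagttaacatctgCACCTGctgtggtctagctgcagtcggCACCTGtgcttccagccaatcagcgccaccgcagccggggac
Grhl1: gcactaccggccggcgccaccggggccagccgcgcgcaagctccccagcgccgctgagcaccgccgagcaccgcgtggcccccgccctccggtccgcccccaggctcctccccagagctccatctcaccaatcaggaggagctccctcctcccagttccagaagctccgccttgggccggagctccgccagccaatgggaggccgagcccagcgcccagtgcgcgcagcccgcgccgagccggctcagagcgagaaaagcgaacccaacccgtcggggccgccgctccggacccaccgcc
Windows were listed for 5 of the 10 factors, 7 windows in all. The E-box stood in 4 of these 7, those of Grhl3 and Elf3 and both of Elf5, and in 20.2% of the 32851 windows of this length. The Grainyhead site AACCGGTT (0.146% of all windows), the looser form AACNGGTT, which includes it (2.09%), the palindromic estrogen response element (0.07%) and the ETS site CCGGAAGT (3.89%), each searched on both strands, were in none of the 7. These are matches of letters in a short window and not binding sites.

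The make-up of the family differed between genotypes. Levels of different genes were compared per kilobase of annotated exon. Grhl2 made up 30.3% ± 3.76 of the family's CPM per kb in untreated KO organoids and 92.6% ± 0.655 in untreated WT organoids (SD, n = 3 each). Grhl1 made up 44.8% ± 1.67 in untreated KO organoids and 7.15% ± 0.464 in untreated WT organoids, and Grhl3 25.0% ± 3.13 and 0.207% ± 0.202. With estrogen the shares of Grhl2 were 29.9% ± 5.84 in KO and 93.1% ± 0.884 in WT. The shares of Grhl1 and Grhl3 in KO depended on the exon lengths. With exons of all annotated transcripts they were 39.3% ± 1.51 and 34.6% ± 3.76 in untreated KO organoids. The log2 ratio of Grhl1 to Grhl2 reads, whose change between genotypes does not depend on gene length, was higher in KO by 4.27 without and 4.41 with estrogen. For Grhl3 to Grhl2 it was higher by 9.14 and 8.60, and in both ratios all KO libraries lay above all WT libraries.

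**Figure D2:**
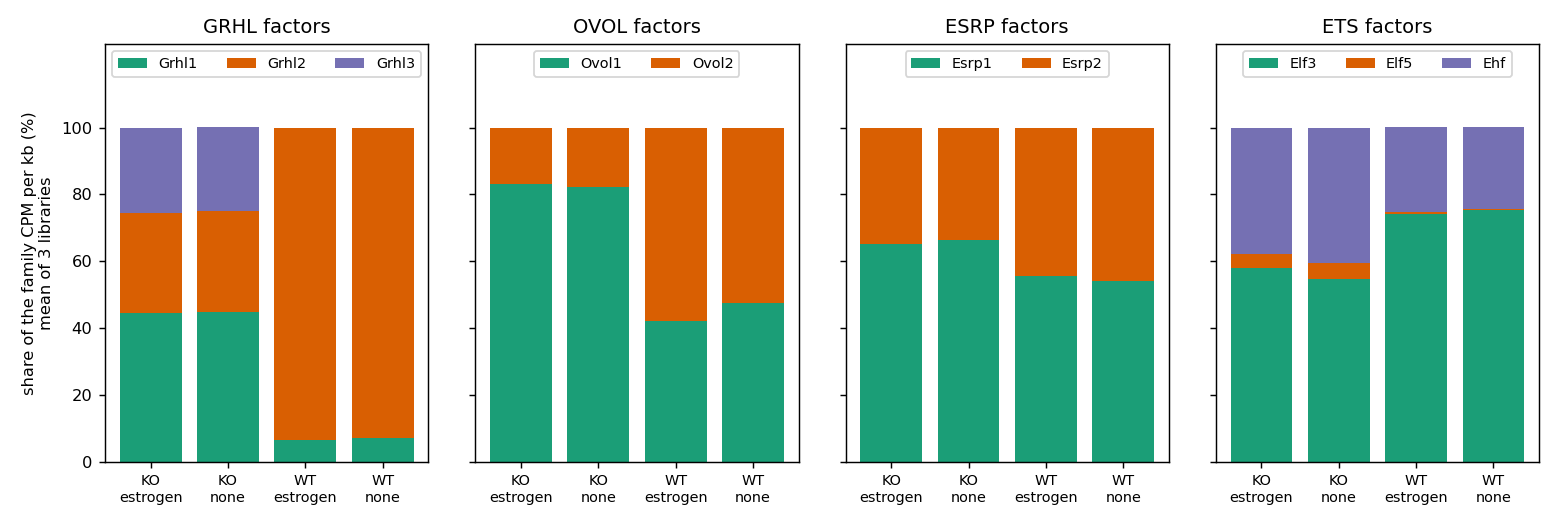
Share of each member in the summed CPM per kb of exon of its family (percent, mean of 3 libraries; stacked bars), by group. Grhl2 made up 92.6% to 93.1% of the Grainyhead-like level in WT and 29.9% to 30.3% in KO. In the ETS family Elf3 made up 54.8% to 57.9% in KO and 74.2% to 75.3% in WT.

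Of the OVOL genes, Ovol1 rose in KO and Ovol2 did not pass in both treatments. Ovol1, which restrains proliferation as epidermal cells leave the cell cycle, had 45.0, 32.9 and 33.0 CPM in untreated KO organoids, against 8.01, 7.37 and 9.43 CPM in untreated WT organoids. The treated organoids had 51.4, 26.9 and 33.3 CPM in KO, against 9.67, 6.58 and 6.37 CPM in WT. KO replicate 1 was the highest library in both treatments, and no KO library reached down to a WT library. The difference was 4.47-fold without estrogen (log2 fold change 2.16 ± 0.253; edgeR adjusted p = 1.71e-05) and 4.93-fold with it (2.30 ± 0.254; edgeR adjusted p = 1.18e-05).

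Ovol2, which represses Zeb1 and other drivers of the mesenchymal state, was low in all libraries. It had 4.83, 5.52 and 5.03 CPM in untreated KO organoids, against 5.95, 6.29 and 5.62 CPM in untreated WT organoids, and 5.24, 4.54 and 4.23 CPM in treated KO, against 5.18, 7.39 and 7.64 CPM in treated WT. The groups did not overlap without estrogen and overlapped with it, where WT replicate 1 lay at the KO level. The log2 fold change was -0.22 (95% confidence interval -0.57 to 0.14; edgeR adjusted p = 0.248) without and -0.53 (-0.88 to -0.18; edgeR adjusted p = 0.0119) with estrogen. The call with estrogen was lost with library size alone in place of TMM (adjusted p = 0.0874), with only the treated libraries in the fit (0.0509), without treated WT replicate 3 (0.0507) and without treated KO replicate 3 (0.0543). With library size alone the untreated value turned to 0.01. The log2 ratio of Ovol2 to Ovol1 reads was lower in KO by 2.37 and 2.79, written -2.37 and -2.79 as KO minus WT, and no KO library overlapped a WT library in it.

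The mesenchymal transcription factors, which OVOL and GRHL factors are known to oppose, were mostly at low levels and went both ways. Of 8 listed, 6 were tested, and 2 were higher and 3 lower in both treatments, and 1 was not. Their median log2 fold change was -2.16 without and -1.78 with estrogen. Snai2, a zinc-finger repressor that is also active in basal keratinocytes, averaged 20.0 ± 4.00 CPM in untreated KO organoids, against 4 reads over untreated WT organoids, and 17.1 ± 5.91 CPM in treated KO, against 3 reads over treated WT. Snai3, a relative of Snai2, averaged 1.56 ± 0.516 CPM in untreated KO organoids against 0.275 ± 0.153 CPM in untreated WT organoids. Snai1, a repressor of Cdh1, averaged 0.0454 ± 0.0393 CPM in untreated KO organoids against 1.66 ± 0.653 CPM in untreated WT organoids. Zeb2 averaged 0.0966 ± 0.0101 against 2.96 ± 1.56 CPM without estrogen, and 0.0710 ± 0.0722 against 0.797 ± 0.447 CPM with it, in KO and WT. Zeb1, named here after its values were seen, had 14 reads over untreated KO organoids against 148 reads over untreated WT organoids. These are 0.0537 ± 0.034 and 0.568 ± 0.236 CPM (edgeR adjusted p = 2.17e-04, and 8.1e-04 in treated organoids). Whether the levels of Zeb1 and of the OVOL factors are linked was not tested. Twist1 and Twist2 did not pass the filter. Snai1 and both Zeb genes are expressed in stromal and immune cells as well. Among the immune markers Ptprc, Cd68 and Csf1r fell in KO, while Lyz2 rose. Among the stromal markers none fell in both treatments and Vim rose. The part of these cells was not tested.

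The splicing regulators differed less. Esrp1, which drives the epithelial splicing of Fgfr2, had 235, 218 and 209 CPM in untreated KO organoids, against 123, 120 and 118 CPM in untreated WT organoids. In treated organoids its level was 228, 201 and 212 CPM in KO, against 113, 122 and 123 CPM in WT. The groups were well apart, with little spread within each. The difference was 1.83-fold without estrogen (log2 fold change 0.88 ± 0.0697; edgeR adjusted p = 7.62e-07) and 1.79-fold with it (0.84 ± 0.0696; edgeR adjusted p = 1.18e-06).

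Esrp2, the paralog with overlapping targets, had 114, 89.1 and 98.2 CPM in untreated KO organoids, against 92.7, 83.8 and 96.1 CPM in untreated WT organoids. With estrogen it had 115, 89.8 and 103 CPM in KO, against 82.8, 89.4 and 82.2 CPM in WT. Untreated groups overlapped, and treated groups were apart by less than 1 CPM between the nearest libraries. The log2 fold change was 0.14 (95% confidence interval -0.09 to 0.38; edgeR adjusted p = 0.243) without and 0.27 (0.04 to 0.51; edgeR adjusted p = 0.0384) with estrogen. The treated call was lost when any of 6 libraries was left out (adjusted p 0.051 to 0.152). These were treated WT replicates 1 and 3, untreated WT replicate 1, treated KO replicates 1 and 3 and untreated KO replicate 3. With library size alone both treatments passed, at 0.37 (adjusted p = 0.00831) and 0.46. Esrp1 made up 66.2% ± 1.99 of the pair's CPM per kb in untreated KO organoids and 54.1% ± 1.93 in untreated WT organoids, and 65.1% ± 1.34 and 55.7% ± 1.33 with estrogen.

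Among 10 genes known for exons that ESRP proteins regulate, 2 were higher and 6 lower in both treatments, and 2 were not, with a median log2 fold change of -0.48 without and -0.37 with estrogen. These are changes in total reads of the gene, whatever its exons. Cd44, a receptor for hyaluronan, averaged 167 ± 34.6 CPM in untreated KO organoids against 4.21 ± 1.93 CPM in untreated WT organoids (edgeR adjusted p = 1.49e-05). Slk, a kinase of the cytoskeleton, averaged 267 ± 20.5 against 188 ± 13.8 CPM in the same groups. Fgfr2, a fibroblast growth factor receptor, averaged 31.3 ± 4.24 CPM in untreated KO organoids against 383 ± 31.2 CPM in untreated WT organoids (edgeR adjusted p = 7.94e-09), and Arhgap17 25.0 ± 0.609 against 111 ± 13.5 CPM.

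Of 12 other splicing regulators, 3 were higher and 3 lower in both treatments, and 6 were not, and their median log2 fold change was -0.22 without and -0.09 with estrogen. Mbnl3, of the muscleblind family, averaged 28.9 ± 4.68 CPM in untreated KO organoids against 4.95 ± 1.24 CPM in untreated WT organoids. Its relative Mbnl1 averaged 80.7 ± 4.7 against 67.1 ± 4.4 CPM. Celf2 averaged 5.51 ± 1.06 CPM in untreated KO organoids against 196 ± 19.2 CPM in untreated WT organoids (edgeR adjusted p = 2.49e-09), and Rbm47, an epithelial RNA-binding protein, 80.3 ± 7.02 against 266 ± 27.6 CPM.

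**Figure D3:**
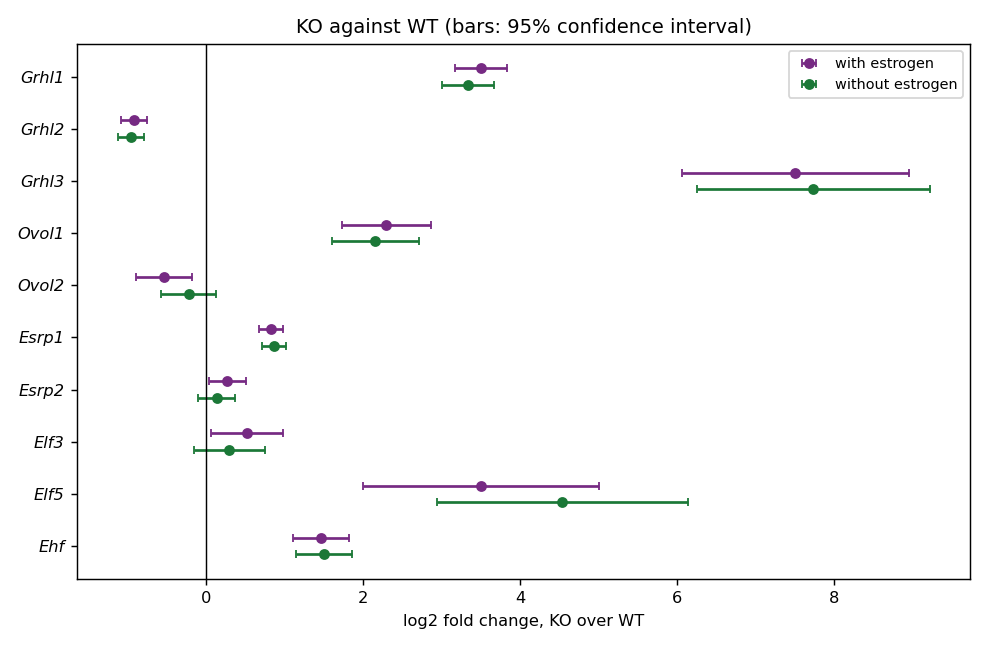
Log2 fold change of each factor, KO over WT, with estrogen and without (points), with 95% confidence intervals from edgeR (bars). Grhl3 had the widest gap between genotypes, at 7.50 with and 7.73 without estrogen, and the untreated intervals of Ovol2, Esrp2 and Elf3 crossed 0.

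The ETS factors Ehf and Elf5 rose in KO, while Elf3 did not pass in both treatments. Elf5, known as a regulator of mammary alveolar cells and of the trophoblast, was low in WT. It had 39.3, 29.2 and 21.6 CPM in untreated KO organoids, against 1.13, 2.38 and 0.324 CPM in untreated WT organoids. The treated organoids had 48.8, 18.8 and 22.0 CPM in KO, against 1.19, 2.05 and 4.67 CPM in WT. The lowest KO library was above the highest WT library, and the spread was wide in both genotypes, with a coefficient of variation of 80.8% in untreated WT organoids. The difference was 23.3-fold without estrogen (95% confidence interval 7.69 to 70.4; edgeR adjusted p = 1.88e-04) and 11.3-fold with it (4.00 to 32.2; edgeR adjusted p = 8.16e-04). The log2 fold change of 4.54 without estrogen became 5.38 without untreated WT replicate 2, and that of 3.51 with estrogen became 4.21 without treated WT replicate 3.

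Both promoter windows listed for Elf5 are shown, since this gene rose by more than 10-fold in both treatments, on the same build and with the same capitals as above. They cover chr2:103411848-103412147 for the upstream window and chr2:103423818-103424117 for the downstream one, both on the plus strand.
Elf5 upstream: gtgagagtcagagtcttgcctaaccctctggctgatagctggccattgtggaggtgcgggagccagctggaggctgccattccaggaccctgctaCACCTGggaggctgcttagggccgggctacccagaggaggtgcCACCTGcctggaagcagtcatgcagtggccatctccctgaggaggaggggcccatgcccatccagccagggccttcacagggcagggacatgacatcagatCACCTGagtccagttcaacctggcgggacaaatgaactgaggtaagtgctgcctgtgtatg
Elf5 downstream: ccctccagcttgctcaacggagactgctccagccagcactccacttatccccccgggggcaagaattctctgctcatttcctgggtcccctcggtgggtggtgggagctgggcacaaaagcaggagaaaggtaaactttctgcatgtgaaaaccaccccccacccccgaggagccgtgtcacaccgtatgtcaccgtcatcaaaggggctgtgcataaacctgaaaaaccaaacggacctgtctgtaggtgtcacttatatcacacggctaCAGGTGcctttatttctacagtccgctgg
The E-box letters stood at 3 places in the upstream window and at 1 place in the downstream window. The counts are summed over the gene and do not tell which start was used.

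Ehf, an ETS factor of ductal and glandular epithelia, had 502, 410 and 459 CPM in untreated KO organoids, against 158, 182 and 141 CPM in untreated WT organoids. In treated organoids its level was 527, 418 and 501 CPM in KO, against 139, 172 and 214 CPM in WT. Each KO library was above each WT library. The difference was 2.85-fold without estrogen (log2 fold change 1.51 ± 0.161; edgeR adjusted p = 7.5e-06) and 2.76-fold with it (1.47 ± 0.161; edgeR adjusted p = 1.03e-05).

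Elf3, which is expressed in many simple epithelia and induced by inflammatory signals, had 241, 278 and 327 CPM in untreated KO organoids, against 200.0, 211 and 276 CPM in untreated WT organoids. With estrogen it had 242, 367 and 416 CPM in KO, against 279, 209 and 222 CPM in WT. The genotypes overlapped in both treatments. The log2 fold change was 0.30 (95% confidence interval -0.15 to 0.75; edgeR adjusted p = 0.208) without and 0.53 (0.08 to 0.98; edgeR adjusted p = 0.0382) with estrogen. The treated call was lost with only the treated libraries in the fit (adjusted p = 0.0623) and when treated WT replicate 2 or 3, treated KO replicate 2 or 3 or untreated KO replicate 2 was left out (0.0504 to 0.141). With library size alone the untreated comparison passed as well, at 0.52 (adjusted p = 0.0342). Within the ETS family Elf3 made up 54.8% ± 5.81 of the CPM per kb in untreated KO organoids and 75.3% ± 5.13 in untreated WT organoids, Ehf 40.5% ± 4.4 and 24.4% ± 4.88, and Elf5 4.66% ± 1.55 and 0.345% ± 0.279.

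Per kilobase of exon, the order of the 10 factors was alike at the top and changed further down. Elf3 (135 ± 20.5 CPM per kb in untreated KO organoids against 109 ± 19.6 in untreated WT organoids) came first and Ehf (99.1 ± 9.98 against 34.8 ± 4.45) second in every group. Esrp1 followed in KO, at 55.5 ± 3.38 CPM per kb without estrogen, against 30.3 ± 0.697 in untreated WT organoids. In untreated WT organoids, Ehf and Esrp1 differed by about the spread of their libraries, as did Esrp2 (25.7 ± 1.8) and Grhl2 (24.2 ± 2.42), while Esrp1 stood above Esrp2 by more than their spread. In untreated KO organoids, Grhl1 (18.9 ± 3.35) stood above Grhl2 (12.6 ± 0.353), Ovol1 (12.4 ± 2.34), Elf5 (11.3 ± 3.34) and Grhl3 (10.6 ± 2.97), which did not differ among themselves beyond their spread on these lengths. Ovol2 was last in KO, at 2.65 ± 0.182 without estrogen, and Grhl3 was last in WT, at 0.0509 ± 0.0464. The exon lengths come from another annotation than the one used for counting, and the order of neighbours depended on them. With all annotated transcripts in place of the basic set, Esrp2 (20.9 ± 1.47) stood above Esrp1 (19.1 ± 0.439) in untreated WT organoids. In untreated KO organoids Elf5 was then at 5.11 ± 1.51 and Grhl2 at 7.79 ± 0.219, below Ovol1 (10.6 ± 2.0) and Grhl3 (10.6 ± 2.97), and the share of Elf5 in the ETS family was 2.42%.

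Several factors had the same highest or lowest library within a group. In KO, replicate 1 was the highest library for 7 of the 10 factors both with and without estrogen, namely Grhl1, Grhl3, Ovol1, Esrp1, Esrp2, Elf5 and Ehf, and it was the lowest for Elf3 in both. Same-numbered KO libraries also deviated together over all genes (correlation 0.47 for replicate 1). How many of all genes were highest in it was not counted, so this order is not shown to be particular to the factors. Summed basal and stratified markers were also highest in KO replicate 1, at 12700 CPM with and 11900 CPM without estrogen. The other KO libraries had 4870 and 8710 CPM with and 6410 and 8560 CPM without it. Multiciliated markers were lowest in replicate 1, at 582 CPM with and 683 CPM without estrogen, against 827 and 613 and 1000 and 770 CPM. The summed uterine epithelial and gland markers were lowest there too, at 13900 and 12200 CPM, against 23800 and 21200 and 16100 and 17400 CPM. Most of this sum is Ltf, whose lowest KO libraries had 13600 CPM with and 12000 CPM without estrogen. The sum therefore does not give the order of the other markers in that list. The part of these cell types in the order of the libraries was not tested. In WT the pattern joined libraries of different numbers. These deviated together over all genes too, with correlations of 0.29 (treated replicate 1 with untreated 3) and 0.32 (treated replicate 3 with untreated 2). Treated replicate 1 and untreated replicate 3 were the highest for Elf3, Grhl3 and Ovol1 and the lowest for Ehf, Elf5, Esrp1, Grhl2 and Ovol2. Treated replicate 3 and untreated replicate 2 were the highest for Ehf, Elf5, Grhl1, Grhl2 and Ovol2. In treated replicate 1 and untreated replicate 3 Elf3 and Elf5 thus stood at opposite ends, and the widest ranges within a group were those of Grhl3 (13.7-fold) and Elf5 (7.32-fold) in untreated WT organoids. What the libraries share in preparation is not given in the labels.

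Treated libraries were compared with untreated ones to ask whether estrogen changed these factors. No member passed the test in either genotype, and the ranges of treated and untreated libraries overlapped for all 10 factors in both, whereas they were apart for 6.89% of all genes in KO and 8.47% in WT. With all 12 libraries in an unpaired fit, edgeR called 0% of genes in KO, in WT and in the interaction of genotype and estrogen. At an unadjusted p under 0.05 edgeR had 411 genes in KO (2.5%), 883 in WT (5.36%) and 726 in the interaction (4.41%), and DESeq2 called 20, 63 and 25 genes, none of them a member. The smallest unadjusted p of a member was 0.207 for Elf3 in KO and 0.154 for Elf5 in WT. Same-numbered KO libraries deviated together, and within all 3 such pairs Elf3, Ehf and Esrp2 were higher with estrogen, as were 16.9% of all genes. With the KO libraries alone, paired by number, edgeR called 486 of 15900 genes (3.06%) for estrogen, and no member was among them. Elf3 came nearest, with a log2 fold change of 0.25 (95% confidence interval 0.07 to 0.43; unadjusted p = 0.0109, edgeR adjusted p = 0.148). Ehf had 0.07 (-0.06 to 0.21; edgeR adjusted p = 0.627) and Esrp2 0.03 (-0.08 to 0.14; edgeR adjusted p = 0.848) in that fit, which was chosen after seeing the data. The submitters' treatment note also states that neither genotype responded to the hormone.

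**Figure D4:**
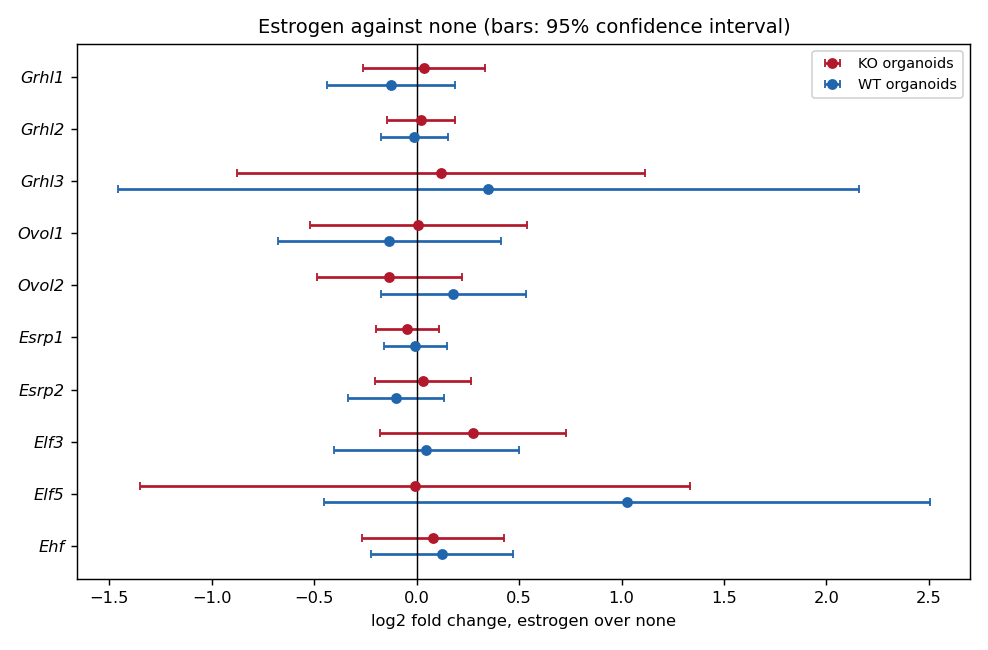
Log2 fold change of each factor, estrogen over none, in KO and WT organoids (points), with 95% confidence intervals from edgeR (bars). All intervals of this unpaired fit include 0, and they are narrow for Grhl2 and Esrp1 and wide for Grhl3 and Elf5.

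How far a change by estrogen could hide depends on the factor. For Esrp1 the log2 fold change was -0.05 in KO (95% confidence interval -0.20 to 0.11) and -0.01 in WT (-0.16 to 0.15). For Grhl2 it was 0.02 in KO (-0.14 to 0.19) and -0.01 in WT (-0.18 to 0.15). For Elf5 it was -0.01 in KO (-1.35 to 1.33) and 1.03 in WT (-0.45 to 2.51), and for Grhl3 0.12 in KO (-0.88 to 1.11) and 0.35 in WT (-1.46 to 2.16). The difference between the genotypes' responses, KO minus WT, ran from -1.03 (Elf5; edgeR adjusted p = 0.974) to 0.23 (Elf3; edgeR adjusted p = 0.975).

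Relatives of the factors and other epithelial genes were also mixed. Of 7 CP2 and ETS relatives, 2 were higher and 3 lower in both treatments, and 2 were not, with median log2 fold changes of 0.12 without and 0.21 with estrogen. Spdef, an ETS factor of secretory cells, averaged 6.80 ± 1.43 CPM in untreated KO organoids against 0.178 ± 0.128 CPM in untreated WT organoids, and Elf2 52.6 ± 3.34 against 35.5 ± 2.73 CPM. Tfcp2, a CP2 factor related to the Grainyhead-like proteins, averaged 16.9 ± 1.45 CPM in untreated KO organoids against 41.9 ± 4.91 CPM in untreated WT organoids, and its relative Ubp1 49.0 ± 2.3 against 67.5 ± 2.8 CPM.

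Of 8 other epithelial transcription factors, 4 were higher and 2 lower in both treatments, and 2 were not (medians 0.93 and 0.87). Tfap2c, an AP-2 factor of ectodermal lineages, averaged 16.8 ± 5.64 CPM in untreated KO organoids, against 6 reads over untreated WT organoids. Trp63, the master factor of basal cells, averaged 107 ± 30.7 CPM in untreated KO organoids against 2.60 ± 0.345 CPM in untreated WT organoids. Klf4, a zinc-finger factor of epithelial differentiation, averaged 76.1 ± 13.8 CPM in untreated KO organoids against 137 ± 8.67 CPM in untreated WT organoids.

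Of 15 epithelial junction and surface protease genes, several of them known targets of GRHL2, 4 were higher and 6 lower in both treatments, and 5 were not (medians -0.14 and -0.03). Tjp3, a tight junction scaffold, averaged 165 ± 7.6 CPM in untreated KO organoids against 67.3 ± 1.67 CPM in untreated WT organoids. Spint1, an inhibitor of the surface protease matriptase, averaged 256 ± 24.1 CPM in untreated KO organoids against 989 ± 44.2 CPM in untreated WT organoids, and the tricellular junction receptor Lsr 155 ± 4.83 against 281 ± 4.48 CPM. Cdh1 itself, E-cadherin, was not called, with a log2 fold change of -0.17 ± 0.103 in untreated organoids (edgeR adjusted p = 0.164) and -0.03 ± 0.103 in treated ones (edgeR adjusted p = 0.784). Of the simple epithelial keratins, Krt7 and Krt18 fell, with log2 fold changes of -0.74 and -0.80 without estrogen, and Krt8 and Krt19 were not called in both. With library size alone, or with DESeq2, all 4 were called in both treatments, 2 higher and 2 lower.

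**Figure D5:**
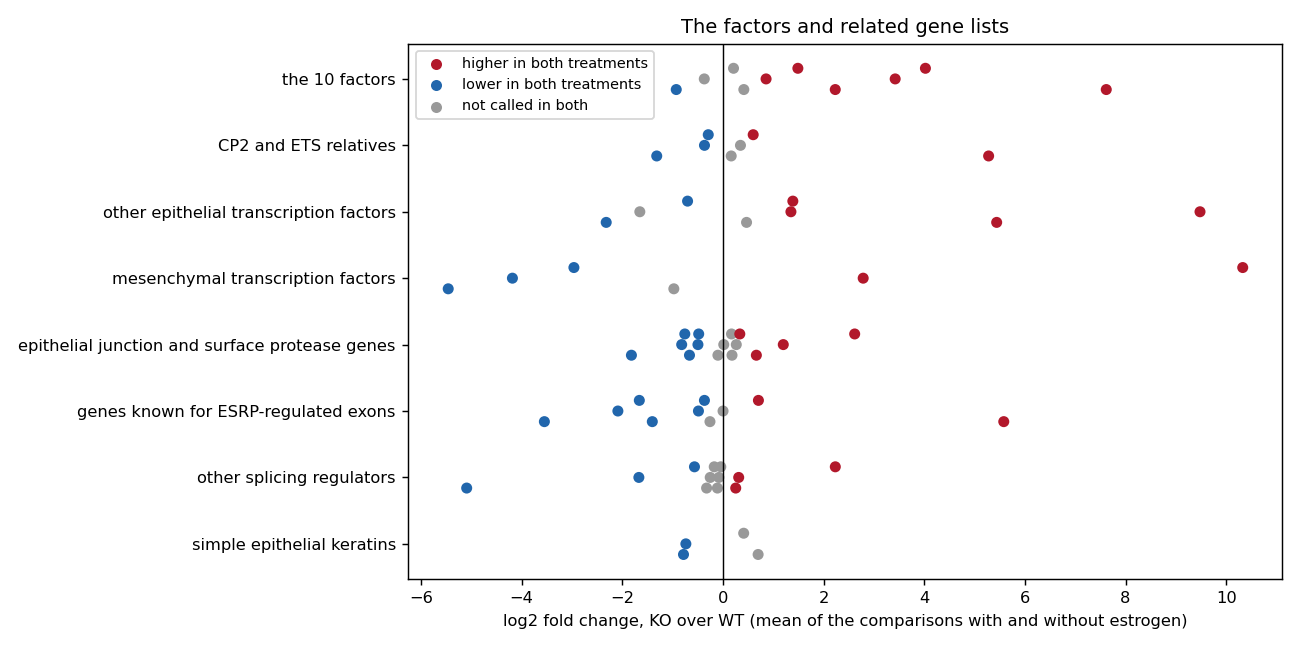
Log2 fold change, KO over WT, averaged over the comparisons with and without estrogen, for each tested gene (points) of the 10 factors and of 7 related lists; vertical offsets only separate points. Colours show whether a gene was higher or lower in both treatments, and each list but the keratins, where the calls were lower, had calls in both directions.

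For each factor, the genes whose pattern over the 12 libraries was nearest were found by the root mean square difference of log2 CPM after centring each gene on its mean. Nearest to Grhl2 were Tor1aip1 (0.0444) and Ccdc149 (0.0448), and nearest to Esrp1 were Gtf2ird1 (0.0688) and Clip1 (0.0716). Nearest to Grhl1 were Sh3bp1 (0.146) and Rassf10 (0.173), and nearest to Ovol1 were Tacc3 (0.119) and Kif22 (0.128). Nearest to Ehf were Sptssa (0.113) and Cadm4 (0.132), and nearest to Elf3 were Ftl1 (0.0978) and F11r (0.116). Esrp2 had Mta2 (0.0524) and Ppp2r2a (0.053), and Ovol2 had Macrod1 (0.0844) and Pcsk4 (0.0847). These 2 factors varied little themselves, with a deviation from their own mean of 0.157 (Esrp2) and 0.248 (Ovol2). Elf5 had Il1f5 (0.227) and Ces2g (0.469), of which Il1f5 averaged 29.1 ± 10.5 CPM in untreated KO organoids against 1.00 ± 0.739 CPM in untreated WT organoids. Grhl3 had Sox21 (0.448) and BC016579 (0.557) at a larger distance, but its own deviation from its mean was 4.08 on the same scale. Beside that deviation its matches were closer than those of Esrp2 and Ovol2.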

How the data were processed

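Counted reads were analysed in 12 libraries, 3 in each of 4 groups, assigned from the sample titles. The deposited files hold raw counts of reads per gene, made with featureCounts 2.0.0 over RefSeq exons without pairing or strand, per the file headers. Per the submitters' processing notes, STAR 2.7.10b and build GRCm39 were used; the notes also list Trim Galore 0.6.6 and a featureCounts version, 2.0.3, other than that in the headers. Reads over several genes were not counted. In GENCODE M21, exons of Grhl2, Ovol1, Ovol2, Esrp1, Esrp2 and Elf3 overlap a gene on the other strand, so reads from it can be lost or included. Gene positions are not given, as the annotation used here is of build GRCm38.

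Genes were filtered with filterByExpr (minimum count 10, minimum total 15), scaled by TMM and fitted with edgeR 4.0.16 under R 4.3.3 (quasi-likelihood, robust, 4 groups sharing an estimate of the spread), with Benjamini-Hochberg adjustment over 16465 genes. The script was tested on simulated data. SE was derived from the log2 fold change and its F statistic. Library totals of 75654191 reads or more make counting error small except for Grhl3 and Elf5 in WT. Within a group, the chi-square of counts between libraries, divided by its degrees of freedom, was 46.5 to 305, far above counting noise. Alternatives were library size alone, DESeq2 1.42.0, other filters, fits on the groups compared, replicate number as a block, and leaving out each library. Ratios of family members used 0.5 added reads. Exon lengths are unions over the basic GENCODE M21 set.

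Same-numbered KO libraries deviated together across treatments (correlations of 0.47, 0.41 and 0.34 across genes), which pairs them in KO; a fit of the KO libraries alone with this pairing was added. WT libraries of the same number gave -0.12, -0.12 and -0.28 and were not taken as pairs. Treated WT replicate 1 with untreated 3 gave 0.29, treated 3 with untreated 2 gave 0.32, and treated 2 with untreated 1 gave 0.19. No fit with these WT pairs was run, so the estrogen calls in WT do not allow for them.

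The members and lists were chosen with earlier results of these data known. Examples of a list are the 2 highest and 2 lowest by mean log2 fold change among genes called in both treatments. Some of these examples are not reported here. Zeb1 and Cdh1 were added after their values were seen, as were the genes named in the check of cell types.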

Additional observations from a re-analysis of the deposited data

How the results depend on the processing

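Grhl1, Grhl2, Grhl3, Ovol1, Esrp1, Elf5 and Ehf kept their direction and passed in both treatments under each of the 18 alternatives run for each value. Requiring at least 2-fold beside the adjusted p left 5 members in each treatment, against 10 called with estrogen and 7 without; Grhl2 and Esrp1 were then under the fold. The same requirement took the genes called in both treatments to 2 of 5 CP2 and ETS relatives, 3 of 10 junction and protease genes, 5 of 8 genes with ESRP-regulated exons, 3 of 6 other splicing regulators and 0 of 2 keratins. Leaving out each library in turn gave 7 to 10 members called with estrogen and 7 without. With replicate number as a block, 7 members were called in both treatments, 10 with estrogen, and 0 for estrogen in KO, in WT and in the interaction, so the block changed no call of a member. Over all genes the block called 7 genes for estrogen in WT, 0 in KO and 4 in the interaction, where the fit without it called 0 in each. That block treats WT libraries of the same number as pairs too, although they did not deviate together. With the KO libraries alone and paired by number, 486 genes were called for estrogen, 0 of them members. No alternative called a member for estrogen or for the interaction, whose fit on the compared groups alone was not run because it needs all 4. Library size alone in place of TMM shifted the median over all genes by 0.226 without and 0.185 with estrogen (log2), and called 9 of the 10 members in both treatments; among all genes called it gave 65.5% and 63.1% higher in KO, so small differences such as those of Ovol2, Esrp2 and Elf3 depend on the scaling. The KO minus WT differences of the family ratios kept their sign under each setting run; Grhl3 to Grhl2 without estrogen ranged from 8.09 to 9.98 and Elf5 to Elf3 from 3.70 to 5.32, moves within the SD of the WT libraries but beyond that of the KO libraries. With exons of all annotated transcripts, a choice made after seeing the data, Grhl2 made up 26.1% of its family in untreated KO and 92.4% in untreated WT. In untreated KO Grhl1 then made up 39.3% and Grhl3 34.6%, against 44.8% and 25.0% on the basic set. Low read numbers limit the folds of Grhl3 and Elf5, whose WT levels rest on few reads.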
